A study of Mus musculus with 11 samples.

Results

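The genes described here are 38 genes of the autophagy and mitophagy machinery, chosen by symbol from the 55385 genes of the deposited count table. They were placed in 3 roles: 16 genes of initiation, 15 of conjugation and 7 cargo receptors. All 38 were among the 15416 genes that passed the low-count filter, so none was lost to it. RNA was sequenced from mouse gastrocnemius, a mixed-fibre calf muscle, dissected after 36 h without food, a treatment under which muscle loses mass. The groups, with the names used below, were ZEB1 flx/flx; HSACre mice (ZEB1 KO, 3 libraries), ZEB1 flx/flx mice without Cre (ZEB1 control, 2 libraries, numbered 2 and 3), ZEB2 flx/flx; HSACre mice (ZEB2 KO, 3 libraries) and ZEB2 flx/flx mice without Cre (ZEB2 control, 3 libraries). HSA-Cre is a recombinase under the skeletal actin promoter, active in myofibres, so other cells of the muscle keep the floxed gene. Every group was fasted and there was no fed group. No group carried Cre without a floxed allele, so loss of a ZEB gene and presence of Cre cannot be told apart. Each library held RNA of 2 mice, and p-values therefore measure the spread between pools. The ages of the mice are not stated in the labels. Both ZEB proteins are DNA-binding repressors that recognise E-boxes, known chiefly from their silencing of epithelial genes.

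Autophagy delivers cytoplasm and organelles to lysosomes in double-membraned vesicles. The ULK kinase complex and a class III PI3-kinase complex start the vesicle, lipid-transfer and scaffold proteins extend it, and a ubiquitin-like conjugation system attaches ATG8 proteins (the LC3 and GABARAP families) to its membrane. Receptors tie cargo to the ATG8 proteins, and receptors on the mitochondrial outer membrane do so for mitochondria (mitophagy). In skeletal muscle, several of these genes are known targets of FoxO transcription factors, and fasting raises their transcripts along with those of the muscle ubiquitin ligases.

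Promoter windows from RefSeq (GRCm38.p6), from 250 bases before to 50 bases after an annotated start, were found for 31 of the 38 genes. Ulk1, Gabarapl1 and Bnip3 are shown because no other gene of the 38 varied more between libraries, and Map1lc3b because it encodes LC3B, the usual marker protein of the vesicles. Capitals mark a TFEB-type E-box (CACGTG) or a ZEB-type E-box (CACCTG, or CAGGTG on the other strand), and every sequence is written in the direction of transcription. Ulk1 lies at chr5:110810032-110810331 on the minus strand, Map1lc3b at chr8:121590188-121590487 on the plus strand, Gabarapl1 at chr6:129532942-129533241 on the plus strand and Bnip3 at chr7:138909457-138909756 on the minus strand.
Ulk1: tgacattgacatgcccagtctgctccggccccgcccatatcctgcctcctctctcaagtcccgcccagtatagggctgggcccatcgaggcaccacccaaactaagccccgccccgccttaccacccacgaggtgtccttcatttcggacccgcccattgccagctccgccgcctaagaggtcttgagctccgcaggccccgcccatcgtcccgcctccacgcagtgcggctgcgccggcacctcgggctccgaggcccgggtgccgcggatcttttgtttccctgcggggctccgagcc
Map1lc3b: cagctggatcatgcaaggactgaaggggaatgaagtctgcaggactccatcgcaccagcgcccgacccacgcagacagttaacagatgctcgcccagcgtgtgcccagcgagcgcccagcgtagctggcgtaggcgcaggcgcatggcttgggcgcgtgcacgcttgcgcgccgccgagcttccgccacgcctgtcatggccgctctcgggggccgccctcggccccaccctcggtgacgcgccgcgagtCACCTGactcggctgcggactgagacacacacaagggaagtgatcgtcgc
Gabarapl1: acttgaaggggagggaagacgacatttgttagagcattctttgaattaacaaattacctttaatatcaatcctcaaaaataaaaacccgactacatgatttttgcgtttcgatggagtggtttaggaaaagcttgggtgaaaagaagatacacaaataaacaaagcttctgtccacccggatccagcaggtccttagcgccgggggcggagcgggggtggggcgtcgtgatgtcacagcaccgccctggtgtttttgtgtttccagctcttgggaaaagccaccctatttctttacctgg
Bnip3: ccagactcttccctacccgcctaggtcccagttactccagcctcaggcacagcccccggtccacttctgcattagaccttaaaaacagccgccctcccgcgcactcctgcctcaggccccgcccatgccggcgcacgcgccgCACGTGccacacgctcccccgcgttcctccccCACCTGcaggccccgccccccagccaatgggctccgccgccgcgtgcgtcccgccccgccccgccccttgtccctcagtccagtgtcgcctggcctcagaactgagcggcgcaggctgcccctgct
The Bnip3 window held CACGTG starting at base -108 and CACCTG at base -76 from the annotated start, and the Map1lc3b window held CACCTG at base 1. Neither motif was in the Ulk1 or Gabarapl1 window. Over both strands, the ZEB-type E-box was in windows of 6 of the 31 genes (Atg14, Bnip3, Map1lc3b, Optn, Pik3r4 and Tax1bp1), or 19.4%, beside 22.6% of all 27025 genes with a window. CACGTG, which is its own reverse complement, was in windows of 5 of the 31 (Atg14, Atg3, Atg5, Atg7 and Bnip3), or 16.1%, beside 8.09% of all genes. The form TGTTTAC of the FoxO core motif, searched also as its reverse complement GTAAACA, was in 0 of the 31, beside 4.05% of all genes. Variants of that form were not searched. Such a variant, ATAAACA, is in the Gabarapl1 window above. It is not particular to that gene, since the Wipi2 window also holds it and the Ambra1 window holds its reverse complement. Its share over all genes was not counted. A match in a window is a description of its letters and not evidence of binding.

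Library totals were 27.3 M to 46.3 M counts, and genes of the mitochondrial genome took 12.1% to 18.01% of them. Levels are given as CPM, each count over its TMM-scaled library total in M. Zeb1 had 28.4, 28.6 and 30.4 CPM in ZEB1 KO libraries, against 41.2 and 51.1 CPM in ZEB1 control libraries. Zeb2 had 18.3, 14.4 and 17.7 CPM in ZEB2 KO libraries, against 24.1, 23.1 and 25.8 CPM in ZEB2 control libraries. Each targeted gene was lower in every knockout library than in every control of its line, and non-myofibre cells and exons outside the deleted part also give reads. Skeletal muscle markers summed to between 90187 and 115463 CPM, which fits the tissue label. Summed Y-linked CPM was 0 in 4 libraries (ZEB1 KO 1, ZEB1 KO 2, ZEB1 control 2 and ZEB2 control 3) and 156 to 390.4 in the other libraries, so the sex of the mice varied between pools of one group.

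Per kilobase of merged exons, the mitophagy receptor Bnip3 stood highest, at a mean of 430.0 CPM per kb over the 11 libraries, followed by the ubiquitin-binding receptor Sqstm1 (p62) at 356. The ATG8 genes Map1lc3a (171), Gabarapl1 (153), Gabarap (81.4) and Map1lc3b (61.3) came next. The order of these neighbours is not firm, because Bnip3, Sqstm1 and Gabarapl1 each varied over 4-fold between libraries. It also rests on the merged exon length, 7517 bp for Map1lc3b and 1181 bp for Map1lc3a. In CPM alone Map1lc3b was above Map1lc3a, at a mean of 461 against 202. By role, the median was 8.62 CPM per kb for initiation, 5.27 for conjugation and 27.8 for the receptors. Within conjugation the ATG8 genes had a median of 81.4 and the enzymes with their partners one of 3.47. The lowest of the 38 per kb was Atg7, which encodes the E1-like activating enzyme, at 1.16 CPM per kb. In CPM alone Atg4c (4.12) and Atg10 (6.14) were below Atg7 (8.09).

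The genes also differed in how much they varied. The ratio of the highest to the lowest library was 9.21 for Gabarapl1, 7.11 for Ulk1, 5.83 for Bnip3, 4.66 for Sqstm1 and 4.09 for Wipi1. It was 1.25 for Becn1, 1.33 for Atg16l1 and 1.36 for Atg3. The ratio passed 2 for 22 of the 38 genes, and its median was 2.33 for initiation, 1.77 for conjugation and 3.57 for the receptors. It was not summarised over all genes, so such spreads may not be particular to these 38.

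**Figure D1:**
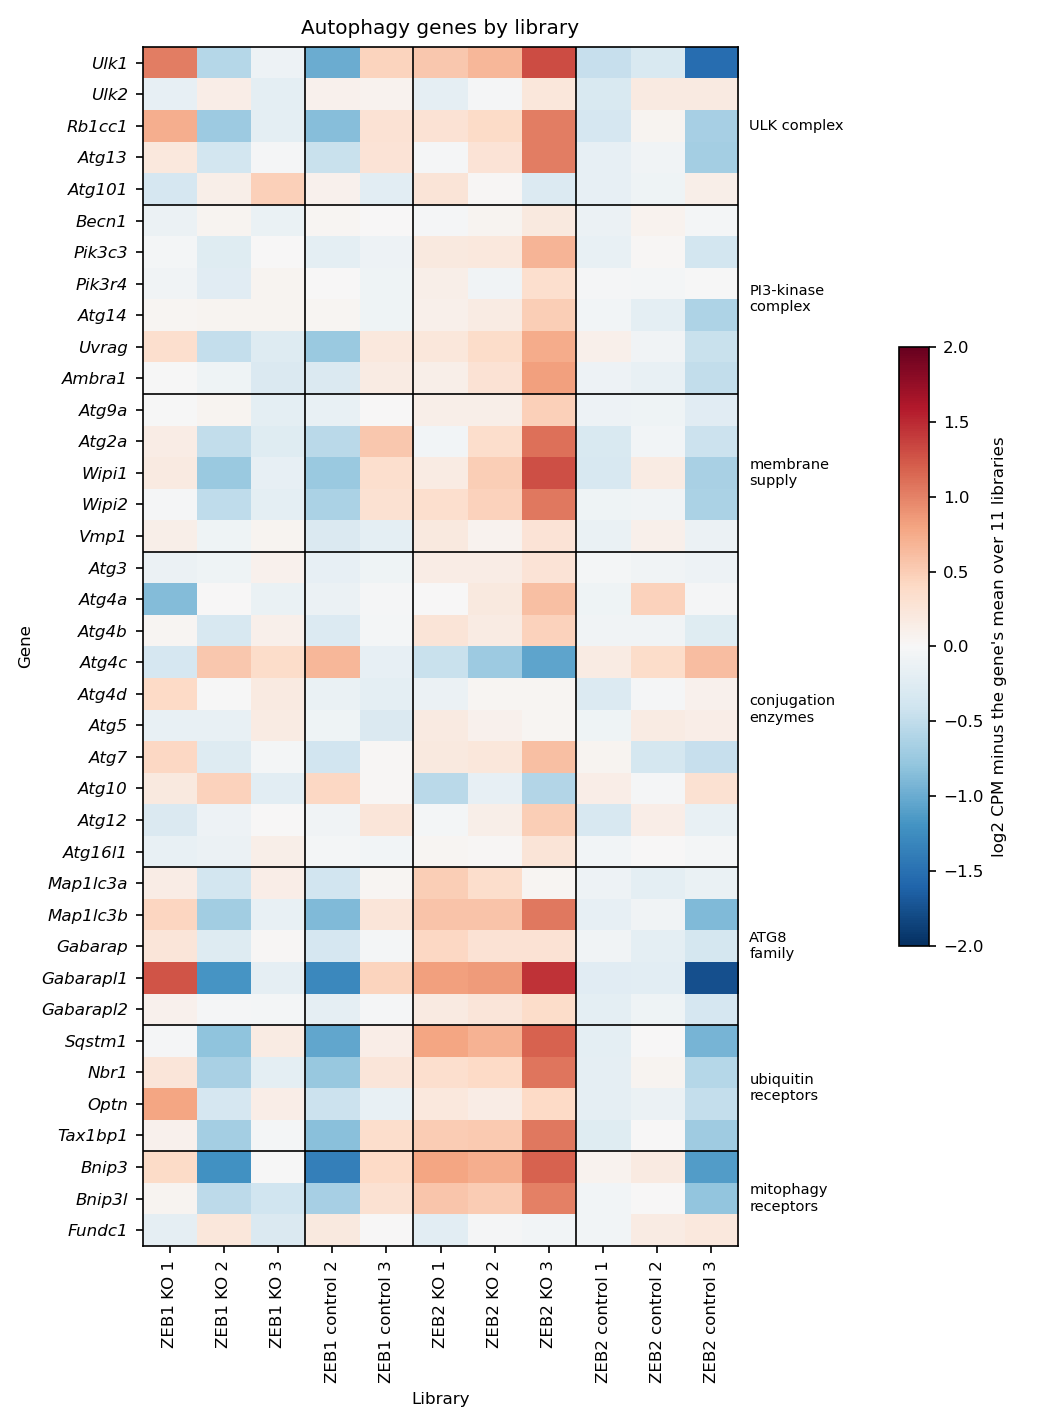
Log2 CPM of the 38 autophagy genes (rows, by role) in the 11 libraries (columns, by group), each gene minus its mean over the libraries, with red above and blue below that mean. The columns of the 3 ZEB2 KO libraries are mostly red, and ZEB2 KO 3 holds the highest value of 29 of the 38 genes. That count was not made over all genes.

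Most genes stood at their highest in a single library. ZEB2 KO 3 held the highest value of 29 of the 38 genes, while ZEB2 control 3 held the lowest of 13 and ZEB1 control 2 the lowest of 11. No such counts were made over all genes, so they may not be particular to the autophagy genes. Pools of one genotype differed from each other as well. ZEB1 control 3 was above ZEB1 control 2 for 27 of 38 genes, and 10 of the 38 (26.3%) were apart by over 1 on the log2 scale, beside 12% of all genes tested. ZEB1 KO 1 was above ZEB1 KO 2 for 25 of 38 genes, with 6 (15.8%) over 1 log2 apart, beside 12.8% of all genes. Between other pools the share was often smaller than over all genes. Over ZEB1 KO 1 and 3 the shares were 5.26% beside 9.7%, and over ZEB1 KO 2 and 3 they were 2.63% beside 9.85%. For ZEB2 KO it was 0% beside 4.32% (1 and 2), 7.89% beside 9.68% (1 and 3) and 0% beside 7.78% (2 and 3). For ZEB2 control it was 0% beside 7.45% (1 and 2), 7.89% beside 7.67% (1 and 3) and 7.89% beside 5.1% (2 and 3).

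In ZEB2 KO muscle, 34 of the 38 genes had a higher mean than in ZEB2 controls, and 46.6% of all genes tested did. The median log2 fold change of the 38 was 0.52, against -0.047 over all genes. It was 0.56 for initiation (15 of 16 above 0), 0.31 for conjugation (13 of 15) and 0.95 for the receptors (6 of 7). With upper-quartile factors or total counts in place of TMM, 30 of the 38 were above 0. By edgeR's quasi-likelihood test with Benjamini-Hochberg adjustment over all genes, 0 of the 38 and 0 of all genes (0%) passed an adjusted p of 0.05, and the smallest adjusted p of any gene was 0.0775. At an unadjusted p of 0.05, 22 of the 38 were higher in ZEB2 KO, beside 15.9% of all genes, and 2 were lower, beside 17.3%. DESeq2, which tests the same groups with another estimate of the spread, called 16 of the 38 higher (9.08% of all genes) and 1 lower (7.7%) at an adjusted p of 0.05, and limma-voom called 0. A fit to the ZEB2 line alone called 13 of the 38, beside 14.2% of the genes it tested. The libraries of ZEB2 KO lay wholly above those of ZEB2 control for 26 of the 38 (21.3% of all genes) and wholly below for 2 (22.1%).

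In ZEB1 KO muscle the same genes differed little on average from ZEB1 controls. The median log2 fold change was 0.064, against 0.0069 over all genes, and 24 of the 38 were above 0, as were 51.2% of all genes. By role it was 0.013 for initiation, 0.10 for conjugation and 0.018 for the receptors. By edgeR, 0 of the 38 and 0 of all genes (0%) passed an adjusted p of 0.05. At an unadjusted p of 0.05 there was 1 of the 38, Atg4d, beside 3.24% of all genes. DESeq2 called 0 of the 38 and 0.136% of all genes, and limma-voom also called 0 of the 38. The groups did not overlap for 3 of the 38, all higher in ZEB1 KO (Atg14, Vmp1 and Atg4d), beside 13.9% of all genes in either direction and 7.19% in that one. The ZEB1 median turned on the 2 controls: it was -0.088 without ZEB1 control 2 and 0.32 without ZEB1 control 3.

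**Figure D2:**
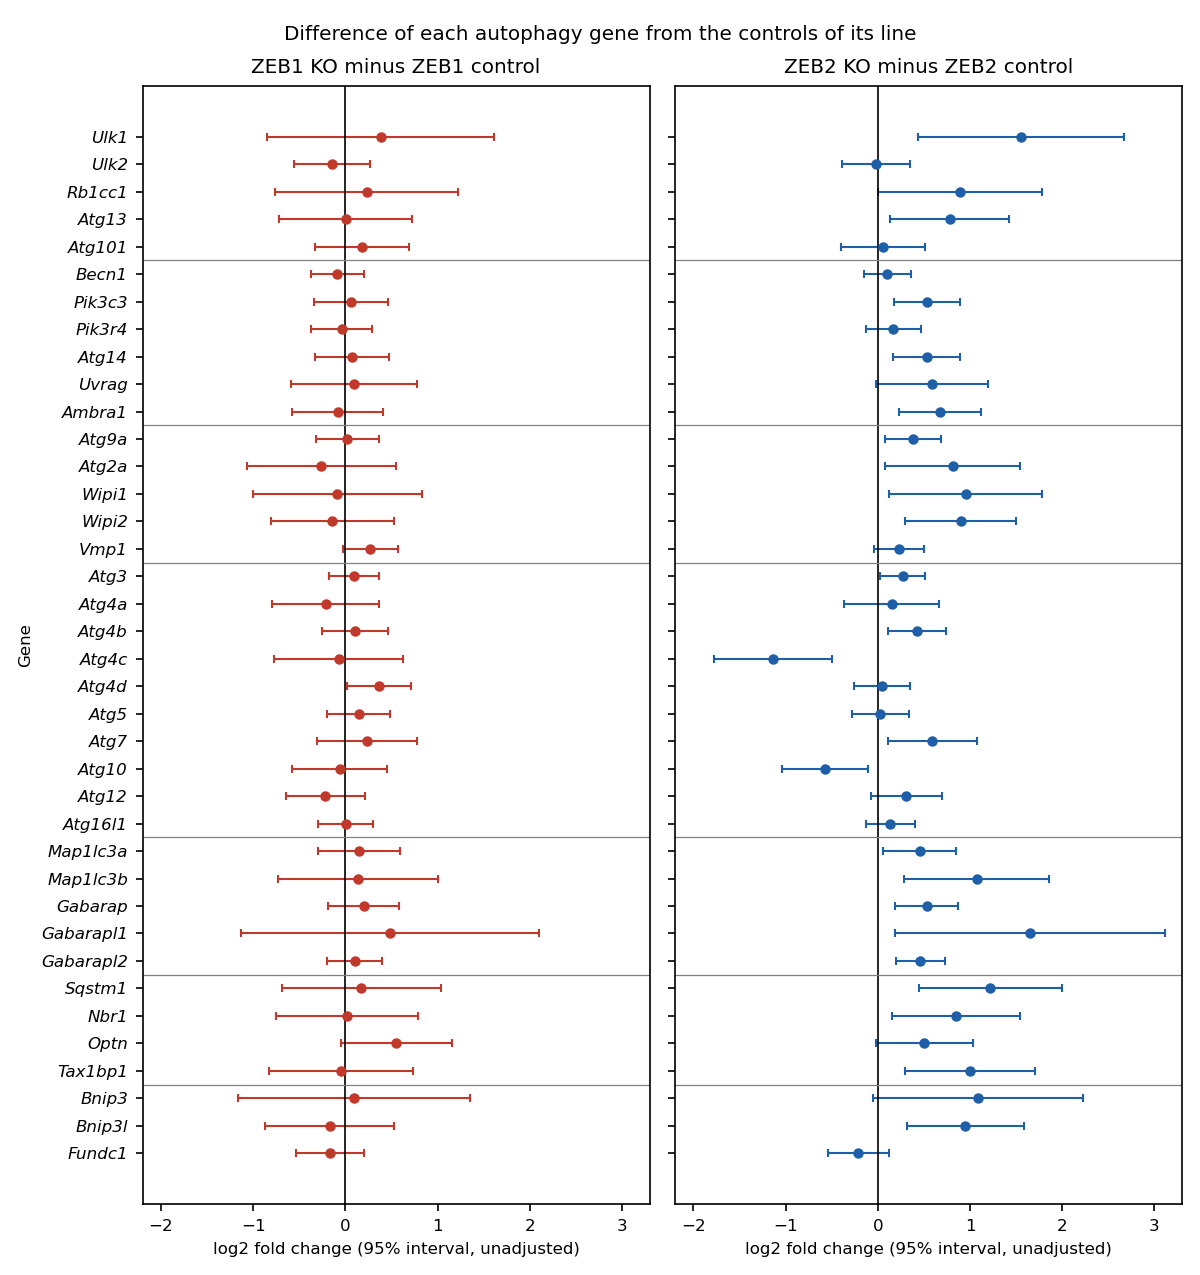
Log2 fold change of each autophagy gene in ZEB1 KO over ZEB1 control (left) and in ZEB2 KO over ZEB2 control (right), with unadjusted 95% intervals from the edgeR fit and genes grouped by role. Of the 38 points, 34 lie above 0 in the ZEB2 line and 24 in the ZEB1 line, where most intervals span 0.

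Initiation begins with the ULK complex, a kinase with its scaffold partners. Ulk1, its kinase, had 298, 327 and 508 CPM in ZEB2 KO libraries, against 149, 167 and 71.4 CPM in ZEB2 control libraries. Ulk1 in the ZEB1 line had 421, 138 and 191 CPM in ZEB1 KO libraries, against 104 and 279.9 CPM in ZEB1 control libraries. The groups were apart in the ZEB2 line and overlapped in the ZEB1 line. The log2 fold change was 1.55 (SE 0.50) in ZEB2 KO, with an edgeR adjusted p of 0.0908 and a DESeq2 adjusted p of 0.0131, and 0.38 (SE 0.55) in ZEB1 KO, with an edgeR adjusted p of 1.00. Rb1cc1 (FIP200) and Atg13, scaffold subunits of the complex, had log2 fold changes of 0.89 (SE 0.40) and 0.78 (SE 0.29) in ZEB2 KO, and only Atg13 of this pair passed DESeq2 (adjusted p 0.0498). Ulk2, the paralogous kinase, averaged 76.4 ± 11.2 CPM in ZEB2 KO and 77.4 ± 13.8 CPM in ZEB2 control (SD, n = 3 each), a log2 difference of -0.02 with a 95% interval of -0.39 to 0.35. The remaining subunit gene, Atg101, had 0.06 (SE 0.21).

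The class III PI3-kinase complex makes the lipid that marks the growing membrane. Its 6 genes had log2 fold changes from 0.10 to 0.68 in ZEB2 KO and from -0.09 to 0.09 in ZEB1 KO. Ambra1, a regulator that links the complex to ULK1 and to ubiquitin ligases, had 41.9, 47.1 and 68.4 CPM in ZEB2 KO libraries, against 36.1, 35.0 and 27.3 CPM in ZEB2 control libraries. Those groups did not overlap, and the log2 fold change was 0.68 (SE 0.20), with an edgeR adjusted p of 0.0830 and a DESeq2 adjusted p of 0.0242. Pik3c3 (VPS34), the lipid kinase, and Atg14, its autophagy-specific subunit, stood at 0.54 (SE 0.16) and 0.53 (SE 0.16), and both passed DESeq2 (adjusted p 0.0278 and 0.0277). Becn1 (Beclin 1), the scaffold of the complex, varied least of the 38. Becn1 had 44.8, 47.4 and 51.8 CPM in ZEB2 KO libraries, against 42.0, 47.8 and 43.9 CPM in ZEB2 control libraries, and its log2 fold change of 0.10 had a 95% interval of -0.15 to 0.36. Pik3r4 (VPS15), the regulatory subunit, and Uvrag, an alternative partner of Beclin 1, had 0.17 (SE 0.14) and 0.59 (SE 0.28).

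The genes of membrane supply had a median log2 fold change of 0.81 in ZEB2 KO and of -0.089 in ZEB1 KO. Wipi2, which reads the lipid mark and recruits the conjugation machinery, had 75.0, 81.9 and 123 CPM in ZEB2 KO libraries, against 55.5, 56.4 and 38.03 CPM in ZEB2 control libraries. Wipi2 in the ZEB1 line had 58.0, 41.5 and 52.0 CPM in ZEB1 KO libraries, against 38.03 and 73.3 CPM in ZEB1 control libraries. The groups were apart in the ZEB2 line, with a log2 fold change of 0.90 (SE 0.27) and a DESeq2 adjusted p of 0.0211, and the ZEB1 KO values all lay between the 2 ZEB1 controls. Atg9a, the lipid scramblase of the vesicles that seed the membrane, had 159, 159 and 204 CPM in ZEB2 KO libraries, against 137, 138 and 125 CPM in ZEB2 control libraries. These values also did not overlap, at a log2 fold change of 0.39 (SE 0.14) and a DESeq2 adjusted p of 0.0396. Atg9a shares exon sequence with the annotated transcript Gm29253 on the same strand, so its count is uncertain to that extent. Wipi1, a paralogue of Wipi2, and Atg2a, a lipid-transfer protein, had 0.96 (SE 0.37) and 0.81 (SE 0.33), of which Wipi1 passed DESeq2 (adjusted p 0.0465). Vmp1, a scramblase of the endoplasmic reticulum, had 60.4, 52.4 and 57.3 CPM in ZEB1 KO libraries, against 45.5 and 48.5 CPM in ZEB1 control libraries. Every ZEB1 KO value was above both controls, at a log2 fold change of 0.27 (SE 0.14) and an edgeR unadjusted p of 0.0741. In ZEB2 KO the log2 fold change of Vmp1 was 0.23 (SE 0.12), and those groups overlapped.

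**Figure D3:**
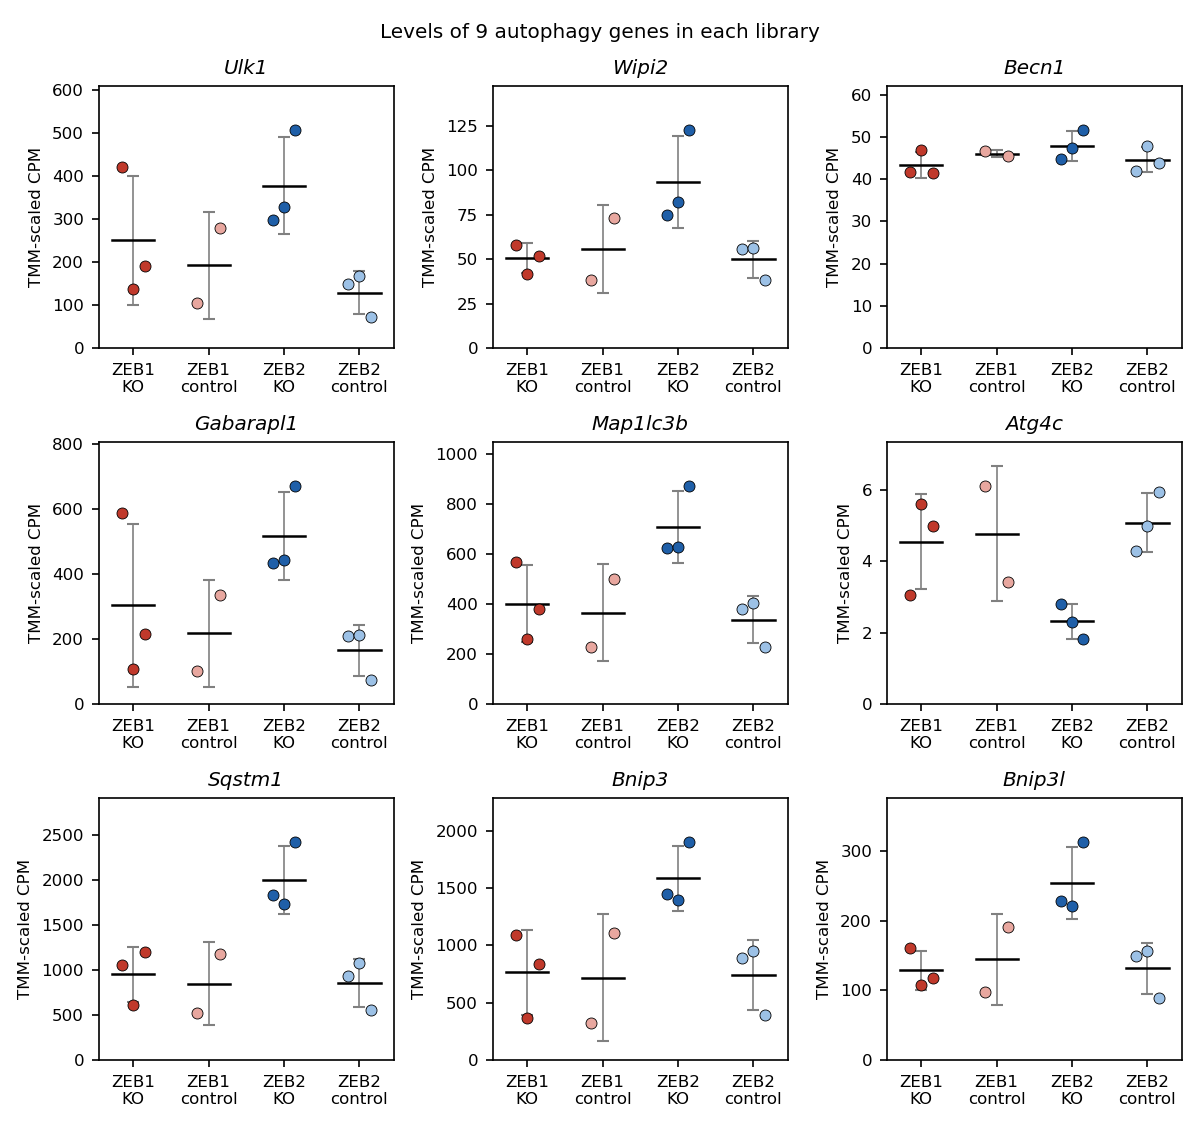
TMM-scaled CPM of 9 autophagy genes in each library (points), with the group mean (black line) and SD (grey bar) for ZEB1 KO, ZEB1 control, ZEB2 KO and ZEB2 control (n = 3, 2, 3 and 3). All panels but those of Becn1 and Atg4c show every ZEB2 KO point above every ZEB2 control point, Atg4c shows the reverse, and the ZEB1 groups overlap in every panel.

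The conjugation enzymes with the ATG5-ATG12-ATG16L1 complex, which together attach ATG8 proteins to lipid, had the smallest median of the groups of genes in ZEB2 KO, at 0.14 over 10 genes. They held both genes that were lower in ZEB2 KO at an unadjusted p of 0.05. Atg4c, a protease that trims ATG8 proteins, had 2.81, 2.30 and 1.83 CPM in ZEB2 KO libraries, against 4.30, 4.99 and 5.95 CPM in ZEB2 control libraries. All ZEB2 KO values were below all controls, and the log2 fold change was -1.14 (SE 0.29), with an edgeR adjusted p of 0.0775 and a DESeq2 adjusted p of 0.00952. In the ZEB1 line Atg4c had 3.05, 5.60 and 4.99 CPM in ZEB1 KO libraries, against 6.11 and 3.43 CPM in ZEB1 control libraries, which overlap. Atg10, the E2-like enzyme that joins ATG12 to ATG5, had 4.09, 5.34 and 3.97 CPM in ZEB2 KO libraries, against 6.59, 5.90 and 7.43 CPM in ZEB2 control libraries. Its groups were also apart, at -0.57 (SE 0.21) with an edgeR unadjusted p of 0.0210, and it did not pass DESeq2 (adjusted p 0.0802).

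Other ATG4 proteases did not follow Atg4c. Atg4b had 32.8, 30.7 and 37.7 CPM in ZEB2 KO libraries, against 26.0, 26.1 and 23.3 CPM in ZEB2 control libraries, so the groups were apart in the opposite direction. Its log2 fold change was 0.43 (SE 0.14), with a DESeq2 adjusted p of 0.0426. Atg4a had 0.15 (SE 0.24) and Atg4d 0.05 (SE 0.14) in the same comparison. Atg4d was the gene of the 38 with the smallest p in the ZEB1 line, where it had 43.5, 32.7 and 37.6 CPM in ZEB1 KO libraries, against 30.0 and 28.9 CPM in ZEB1 control libraries. Those groups were apart, at a log2 fold change of 0.37 (SE 0.16), with an edgeR unadjusted p of 0.0402 and an adjusted p of 1.00. Atg4d shares 1405 bases of exon with Kri1 on the opposite strand, and since the strand setting of the counting is not given in the sources used here, reads of that pair may not be separated. Atg7, the E1-like enzyme, and Atg3, the E2-like enzyme for ATG8 proteins, had 0.59 (SE 0.22) and 0.27 (SE 0.11) in ZEB2 KO. Atg5, Atg12 and Atg16l1, which form the complex that directs the attachment, had 0.03 (SE 0.14), 0.31 (SE 0.18) and 0.14 (SE 0.12).

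All 5 ATG8 genes were higher in every ZEB2 KO library than in every ZEB2 control library, as were 21.3% of all genes tested. All 5 had an edgeR unadjusted p under 0.05, beside 15.9% of all genes in that direction. Gabarapl1, which encodes a GABARAP-family ATG8 protein, had 434, 443 and 671 CPM in ZEB2 KO libraries, against 209, 212 and 72.8 CPM in ZEB2 control libraries. In the ZEB1 line Gabarapl1 had 586, 109 and 216 CPM in ZEB1 KO libraries, against 100.5 and 334 CPM in ZEB1 control libraries. Its log2 fold change was 1.65 (SE 0.66) in ZEB2 KO, the largest of the 38, with an edgeR adjusted p of 0.120 and a DESeq2 adjusted p of 0.0733. In ZEB1 KO it was 0.48 (SE 0.72), and that group overlapped its controls. Map1lc3b had 624, 626 and 873 CPM in ZEB2 KO libraries, against 378, 404 and 229 CPM in ZEB2 control libraries. The log2 fold change of Map1lc3b was 1.07 (SE 0.35), with a DESeq2 adjusted p of 0.0232. Gabarapl2, which varied far less between pools, had 103, 107 and 117 CPM in ZEB2 KO libraries, against 79.5, 86.1 and 72.6 CPM in ZEB2 control libraries. Its smaller log2 fold change of 0.46 (SE 0.12) had the lowest DESeq2 adjusted p of the 38, 0.00653, and an edgeR adjusted p of 0.0785. Map1lc3a (LC3A) had 280.4, 254 and 204 CPM in ZEB2 KO libraries, against 186, 173 and 180.3 CPM in ZEB2 control libraries, at 0.45 (SE 0.18) and a DESeq2 adjusted p of 0.0649. Unlike most of the 38, Map1lc3a was lowest in library 3 among the ZEB2 KO pools. Gabarap stood at 0.53 (SE 0.16) and passed DESeq2 (adjusted p 0.0186).

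The 4 ubiquitin-binding receptors, which join ubiquitin-tagged cargo to ATG8 proteins, were each higher in every ZEB2 KO library than in every ZEB2 control library, beside 21.3% of all genes. Sqstm1 had 1840.5, 1734 and 2429 CPM in ZEB2 KO libraries, against 936, 1077 and 561 CPM in ZEB2 control libraries. Sqstm1 in the ZEB1 line had 1056, 613 and 1198 CPM in ZEB1 KO libraries, against 521 and 1174 CPM in ZEB1 control libraries. The groups were apart in the ZEB2 line, at a log2 fold change of 1.22 (SE 0.35) with an edgeR adjusted p of 0.0824 and a DESeq2 adjusted p of 0.0107, and overlapped in the ZEB1 line at 0.17 (SE 0.39). Tax1bp1 and Nbr1 had 1.00 (SE 0.32) and 0.85 (SE 0.32) in ZEB2 KO, and both passed DESeq2 (adjusted p 0.0219 and 0.0439). Optn (optineurin) had 83.3, 79.6 and 94.7 CPM in ZEB2 KO libraries, against 63.5, 66.3 and 51.5 CPM in ZEB2 control libraries. In the ZEB1 line Optn had 125, 57.0 and 79.2 CPM in ZEB1 KO libraries, against 53.5 and 64.9 CPM in ZEB1 control libraries. Its log2 fold changes were near each other, 0.51 (SE 0.24) in ZEB2 KO and 0.55 (SE 0.27) in ZEB1 KO, and in neither line did it pass edgeR or DESeq2 at an adjusted p of 0.05 over the fit of all 4 groups.

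Bnip3 and Bnip3l (NIX) are mitochondrial outer membrane proteins that bind ATG8 proteins directly, and Fundc1 is a further receptor of that membrane. Bnip3 had 1452, 1393 and 1905 CPM in ZEB2 KO libraries, against 889, 951 and 390.1 CPM in ZEB2 control libraries. Bnip3 in the ZEB1 line had 1094, 363 and 838 CPM in ZEB1 KO libraries, against 327 and 1110.1 CPM in ZEB1 control libraries. The ZEB2 groups were apart, yet the spread between pools left the log2 fold change of 1.09 (SE 0.51) at an edgeR unadjusted p of 0.0584 and a DESeq2 adjusted p of 0.0702. Bnip3l had 228, 221 and 313 CPM in ZEB2 KO libraries, against 149, 156 and 89.5 CPM in ZEB2 control libraries. Bnip3l in the ZEB1 line had 161, 107 and 117 CPM in ZEB1 KO libraries, against 98.2 and 191 CPM in ZEB1 control libraries. Its ZEB2 log2 fold change was 0.95 (SE 0.29), with an edgeR adjusted p of 0.0844 and a DESeq2 adjusted p of 0.0193, while the ZEB1 groups overlapped at -0.17 (SE 0.32). Fundc1 averaged 17.9 ± 1.23 CPM in ZEB2 KO and 20.7 ± 1.93 CPM in ZEB2 control (SD, n = 3 each), at -0.21 (SE 0.15), and was the receptor whose mean was lower in ZEB2 KO.

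The difference between the ZEB1 and ZEB2 effects was tested directly, as the ZEB1 log2 fold change minus that of ZEB2. It was below 0 for 30 of the 38 genes, as for 45.4% of all genes, with a median of -0.36 against 0.060 over all genes. By edgeR, 0 of the 38 and 0 of all genes (0%) passed an adjusted p of 0.05. At an unadjusted p of 0.05, 4 of the 38 were below 0 (4.17% of all genes) and 1 above (5.09%). DESeq2 called 0 of the 38 and 0.11% of all genes, and limma-voom called 0. The genes below 0 were Bnip3l at -1.12 (SE 0.43), Wipi2 at -1.04 (SE 0.41), Ambra1 at -0.76 (SE 0.30) and Tax1bp1 at -1.05 (SE 0.47), with edgeR unadjusted p of 0.0237, 0.0261, 0.0281 and 0.0479. The gene above 0 was Atg4c at 1.07 (SE 0.43), with an edgeR unadjusted p of 0.0313. The edgeR adjusted p of each of these genes was 0.516, so a difference between the lines was not shown for any of the 38.

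The ZEB2 result was smaller without the libraries at its extremes. Without ZEB2 KO 3 the median log2 fold change of the 38 was 0.43. At an edgeR unadjusted p of 0.05, 13 were higher and 1 lower, beside 17.6% of all genes in either direction. Without ZEB2 control 3 the median was 0.42, and 11 were higher and 1 lower, beside 16.2% of all genes in either direction. Without both, a setting chosen after seeing the data, the median was 0.29 and 33 of 38 were still above 0. At that threshold 3 were higher and 1 lower, beside 7.42% of all genes in either direction. ZEB2 control 3 was also the pool of the ZEB2 line with 0 Y-linked CPM. With summed Y-linked CPM as a covariate, the median was 0.37 and 32 of 38 were above 0. At an edgeR unadjusted p of 0.05, 3 were then higher and 1 lower, beside 11.5% of all genes in either direction. The share of counts from the mitochondrial genome also separated the groups of this line, at 14.9%, 14.7% and 12.1% in ZEB2 KO libraries, against 16.004%, 16.95% and 18.01% in ZEB2 control libraries. The 3 ZEB2 control libraries were the highest of the 11 in that share, and its part in the autophagy values was not tested.

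**Figure D4:**
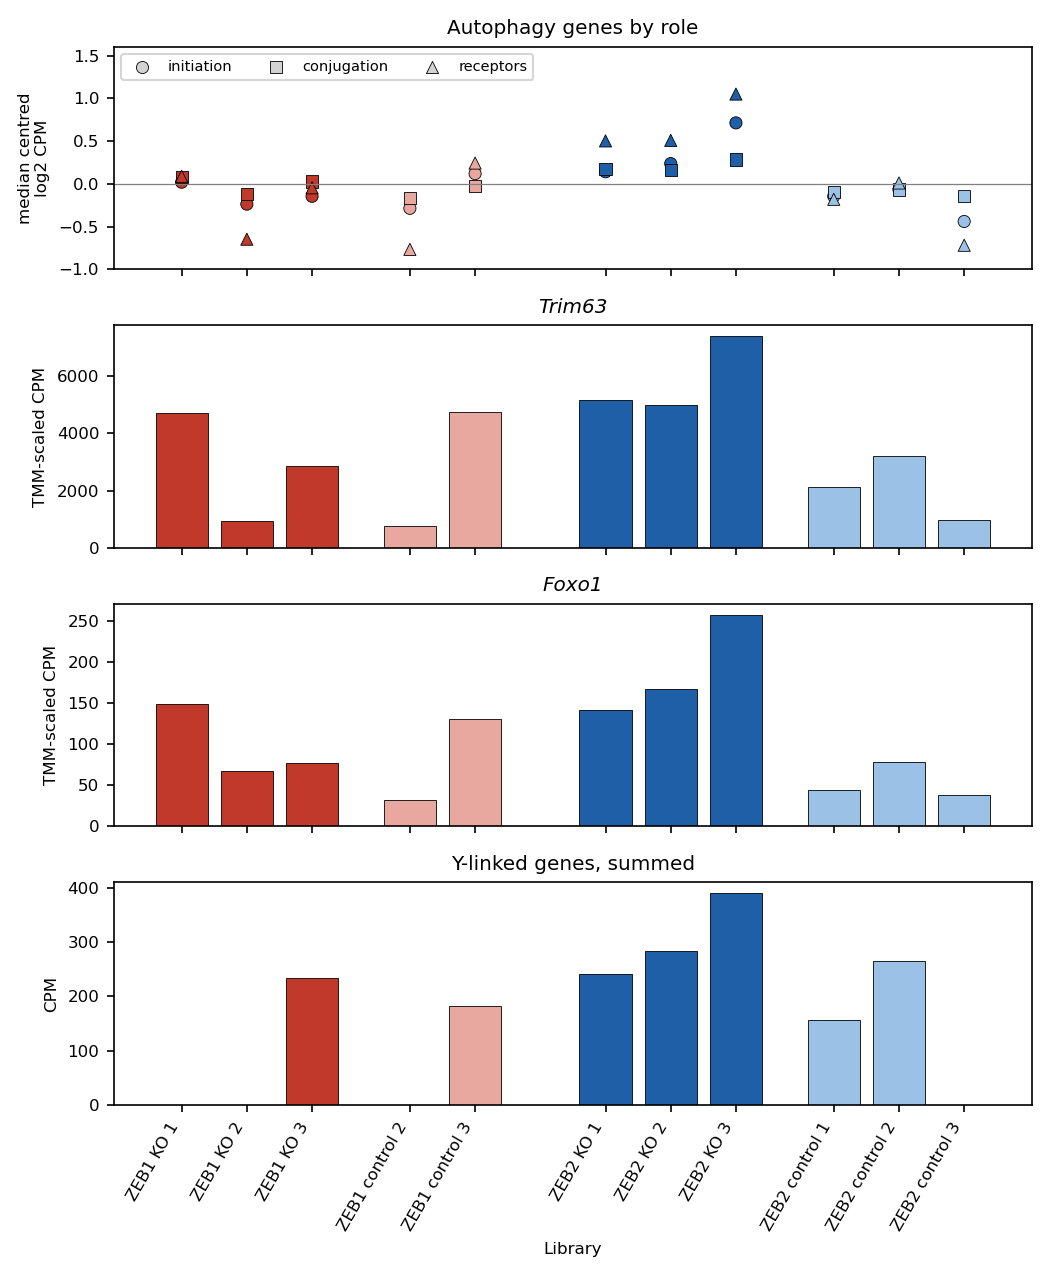
For each library, from top to bottom: the median centred log2 CPM of the autophagy genes by role, the CPM of Trim63 and of Foxo1, and the summed CPM of Y-linked genes. ZEB1 control 2, ZEB1 KO 2 and ZEB2 control 3 are the lowest of their groups in the autophagy medians and in Trim63, and each has 0 Y-linked CPM, as has ZEB1 KO 1.

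Of 7 muscle atrophy genes tested, 6 had a higher mean in ZEB2 KO than in ZEB2 control, beside 46.6% of all genes. Their median log2 fold change was 1.201. At an edgeR unadjusted p of 0.05, 5 were higher, beside 15.9% of all genes. DESeq2 called 5 higher, beside 9.08%, and 5 lay wholly above the ZEB2 controls, beside 21.3%. The libraries overlapped for Fbxo30 and Fbxo21, genes of F-box proteins, and Fbxo21 was at -0.096 (SE 0.24). In ZEB1 KO 6 of the 7 were higher, beside 51.2% of all genes, with a median of 0.064. At an edgeR unadjusted p of 0.05 there were 0, beside 3.24% of all genes. Trim63 (MuRF1), a muscle ubiquitin ligase, had 5157, 4973 and 7378 CPM in ZEB2 KO libraries, against 2139, 3197 and 956 CPM in ZEB2 control libraries. Its log2 fold change of 1.48 (SE 0.71) passed neither test, with an edgeR unadjusted p of 0.0658 and a DESeq2 adjusted p of 0.112. Trim63 in the ZEB1 line had 4709.9, 925 and 2854 CPM in ZEB1 KO libraries, against 769.9 and 4750.0 CPM in ZEB1 control libraries. In every group the pool with the lowest Trim63 was also the pool with the lowest Sqstm1 and Bnip3. In ZEB2 KO that pool, ZEB2 KO 2, lay close to ZEB2 KO 1. Foxo1, a FoxO factor, had 141, 167 and 257 CPM in ZEB2 KO libraries, against 44.7, 77.8 and 38.1 CPM in ZEB2 control libraries. Its log2 fold change of 1.82 (SE 0.52) passed DESeq2 (adjusted p 0.00570) and did not pass edgeR (adjusted p 0.0824). The other FoxO genes did not pass DESeq2 in ZEB2 KO: Foxo3 stood at 0.95 (SE 0.44), Foxo4 at 0.046 (SE 0.13) and the scarce Foxo6 at -1.28 (SE 0.52), with an edgeR unadjusted p of 0.0301. Tfeb, a regulator of lysosomal and autophagy genes, differed less, at 0.25 (SE 0.14). The part of these genes in the autophagy values was not tested.

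Markers of other cell types also differed between the groups. In ZEB2 KO, all 6 tendon markers had a lower mean than in ZEB2 control, with summed levels of 55.0 to 69.7 CPM against 87.1 to 169.7 CPM in ZEB2 control. All 6 fibroblast markers also had a lower mean, at 618 to 779 CPM in ZEB2 KO against 876 to 1124 CPM in ZEB2 control. Their log2 fold changes ran from -1.82 to -0.037. Only 2 of the 6 tendon and 2 of the 6 fibroblast markers lay wholly below the ZEB2 controls, beside 22.1% of all genes. In ZEB1 KO the tendon markers summed to 42.9 to 54.5 CPM against 96.5 to 105.6 CPM in ZEB1 control. The fibroblast markers summed to 609 to 835 CPM against 958 to 1067 CPM, with a lower mean for all 6 of each list. Wholly below the ZEB1 controls lay 4 tendon and 2 fibroblast markers, beside 6.69% of all genes. Skeletal muscle markers summed to 112207 to 115463 CPM in ZEB2 KO against 99548 to 104234 CPM in ZEB2 control, with 5 of 8 means higher. The single markers were split: 3 lay wholly above the ZEB2 controls and 3 wholly below, beside 21.3% and 22.1% of all genes. Lower means in ZEB2 KO were seen for 5 of 5 Schwann cell, 4 of 4 adipocyte, 5 of 5 endothelial and 4 of 4 erythroid markers, and in ZEB1 KO for 5 of 5, 3 of 4, 5 of 5 and 4 of 4. Over all genes tested, 53.4% had a lower mean in ZEB2 KO and 48.7% in ZEB1 KO. Of these markers, 0 Schwann cell, 2 adipocyte, 1 endothelial and 0 erythroid lay wholly below the ZEB2 controls. For the ZEB1 controls the numbers were 1, 0, 1 and 0. Of 6 macrophage markers, 5 had a lower mean in each knockout and Cd68 a higher one, at 0.16 log2 in both lines. They summed to 38.3 to 41.4 CPM in ZEB2 KO against 44.4 to 55.3 CPM in ZEB2 control, and 4 of the 6 lay wholly below those controls. In the ZEB1 line the sums overlapped, at 41.0 to 69.6 CPM in ZEB1 KO against 63.7 to 72.0 CPM in ZEB1 control. Neutrophil markers summed to at most 4.29 CPM in any library. In whole muscle, fewer cells of a type and less RNA per cell cannot be told apart, and the part of cell make-up in the autophagy values was not tested.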

How the data were processed

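RNA of 11 libraries was sequenced after poly(A) selection with a stranded kit, as the labels' protocols state. The authors deposited estimated counts per gene, whole numbers that are not normalized. That unit was judged from the values and because RSEM is named. The submitters' processing notes list STAR, RSEM, DESeq2 and GRCm38, without versions. The annotation release and strand setting were not stated, so reads of overlapping or near-identical genes may be shared.

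The analysis used edgeR 4.0.16 in R 4.3.3: filterByExpr (minimum count 10, minimum total 15) kept 15416 genes with 99.96% of the counts, followed by TMM scaling and a robust quasi-likelihood fit of 4 group means over 11 libraries. Benjamini-Hochberg adjustment covered all genes tested, with a threshold of 0.05. SEs were derived from the log2 fold change and its F statistic, and intervals are unadjusted. Exon lengths came from GENCODE M21 (GRCm38). The fit was tested on simulated counts. Alternatives were DESeq2 1.42.0, limma-voom (limma 3.58.1), other filters and scalings, each line alone, a replicate block, a Y-linked covariate and leaving out each library. Single genes followed in every alternative were the 3 with the smallest p in each comparison and the 2 highest per length in each role. Others were named by role. The members, lists and alternatives were chosen with earlier results of these data known.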

Additional observations from a re-analysis of the deposited data

How the results depend on the processing

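The number of genes past an adjusted p of 0.05 moved with the test, the low-count filter and the libraries fitted, and not with the scaling. By edgeR it was 0 in all 3 comparisons under each scaling. Without a low-count filter edgeR gave 6 in the ZEB1 line, 348 in the ZEB2 line and 2 for the difference. Those 348 were 1.29% of the genes tested there and included 1 of the 38 autophagy genes, Atg4c. DESeq2 gave 21, 2587 (16.8% of all genes, and 17 of the 38) and 17. By limma-voom it was 1 in the ZEB1 line and 0 in the ZEB2 line and for the difference. The edgeR fit to the ZEB2 line alone gave 2077 (14.2% of the genes it tested, and 13 of the 38). Leaving out 1 library at a time gave 0 to 5 genes in the ZEB1 line, 0 in the ZEB2 line and 0 to 3 for the difference (5 and 3 without ZEB1 KO 2, 2 and 2 without ZEB1 control 2), with 0 of the 38 throughout. The median of the 38 was then -0.088 to 0.32 in the ZEB1 line, 0.42 to 0.56 in the ZEB2 line and -0.53 to -0.24 for the difference, and 0.29 in the ZEB2 line without both ZEB2 KO 3 and ZEB2 control 3. Upper-quartile scaling and total counts shifted the median of all genes in the ZEB2 line to -0.18 and -0.17, and that of the 38 to 0.39 under both, with 30 of 38 above 0.

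Values for single genes changed sign, and not only those near 0. With all 11 libraries the ZEB1 values of Gabarapl1 and Ulk1 were 0.48 and 0.38, and both turned negative in settings given below. The difference of Bnip3, also far from 0 with all libraries, turned positive in 1 omission. In the ZEB1 line, Atg9a was -0.0019 under the stricter filter, -0.0022 with upper-quartile factors and -0.030 with total counts. In the ZEB2 line, Atg4d was -0.085 with upper-quartile factors and -0.079 with total counts, and for the difference Optn was -0.025 with limma-voom. Replicate numbers were taken from the titles and shared only as names: correlations of same-numbered deviations were 0.20, -0.027 and -0.31 in the ZEB2 line and 0.46 and 0.17 in the ZEB1 line. The source names number the ZEB1 controls 1 and 2 instead, and those pairs gave -0.31 and -0.46, so the ZEB1 block values hold for the titles' numbers only. With 2 controls the deviations mirror each other, so the -0.46 is the 0.46 with its sign turned. These correlations therefore cannot decide between the numberings. With the number as a replicate block, 0 genes and 0 of the 38 were called in each comparison, and the medians were -0.056 (ZEB1), 0.52 (ZEB2) and -0.45 (difference). The block turned the ZEB1 values of Atg4c (0.20), Atg9a (-0.00027), Bnip3 (-0.13), Gabarapl1 (-0.26) and Ulk1 (-0.071), and the difference of Optn (-0.32) and Vmp1 (-0.011). Leaving out single libraries gave ZEB1 values of Ambra1 from -0.31 to 0.16, Atg4c from -0.43 to 0.39, Atg9a from -0.070 to 0.092, Bnip3 from -0.56 to 1.21, Bnip3l from -0.59 to 0.38, Gabarapl1 from -0.44 to 1.58, Map1lc3a from -0.070 to 0.36, Sqstm1 from -0.32 to 0.86, Ulk1 from -0.24 to 1.25 and Wipi2 from -0.56 to 0.40. It gave ZEB2 values of Atg4d from -0.048 to 0.13, and differences of Bnip3 from -1.68 to 0.097, Optn from -0.34 to 0.28 and Vmp1 from -0.046 to 0.093. Except where a value or an omission is named, the cause was not tested. Counting error weighs most on Atg4c, the lowest of the 38 at 1.83 to 6.11 CPM.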

Other observations

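Of 40 other autophagy genes, listed beside the 38, 39 were tested. In ZEB2 KO 28 had a higher and 11 a lower mean than in ZEB2 control, with a median log2 fold change of 0.34. Of all genes tested, 46.6% had a higher mean. At an edgeR unadjusted p of 0.05, 16 were higher and 2 lower, beside 15.9% and 17.3% of all genes. DESeq2 called 12 higher and 2 lower, beside 9.08% and 7.7%, and edgeR called 0 after adjustment. In ZEB1 KO 28 were higher and 11 lower, with a median of 0.075, beside 51.2% of all genes above 0. Tollip, which binds ubiquitin and ATG8 proteins, had 121, 153 and 266 CPM in ZEB2 KO libraries, against 64.1, 77.2 and 44.7 CPM in ZEB2 control libraries, at 1.54 (SE 0.39) and a DESeq2 adjusted p of 0.00334. Snap29, a SNARE of vesicle fusion with lysosomes, had 54.3, 78.7 and 143 CPM in ZEB2 KO libraries, against 33.4, 51.2 and 28.3 CPM in ZEB2 control libraries, at 1.29 (SE 0.41) and a DESeq2 adjusted p of 0.0164. Trp53inp2, a cofactor that binds ATG8 proteins, went the other way, with 81.9, 144 and 75.7 CPM in ZEB2 KO libraries, against 134, 236 and 296 CPM in ZEB2 control libraries. Those libraries overlapped, and the log2 fold change was -1.14 (SE 0.30), with a DESeq2 adjusted p of 0.00961.

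Vamp8, a lysosomal SNARE, was the 1 gene of these 39 with an edgeR unadjusted p under 0.05 in the ZEB1 line, beside 3.24% of all genes. It had 39.8, 39.0 and 37.2 CPM in ZEB1 KO libraries, against 23.4 and 24.2 CPM in ZEB1 control libraries. In the ZEB2 line it had 32.0, 31.7 and 28.7 CPM in ZEB2 KO libraries, against 27.7, 21.8 and 21.7 CPM in ZEB2 control libraries. The log2 fold changes were 0.70 (SE 0.14) and 0.38 (SE 0.13), with DESeq2 adjusted p of 0.0105 and 0.0302 and edgeR adjusted p of 0.738 and 0.0912. The genes of this section were chosen after their values were seen.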
